A study of Mus musculus with 21 samples.

Results

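The Toll-like receptor genes and Cd14 were followed across 7 groups of cultured mouse macrophages. The 10 members, taken by gene name from the count table, were Tlr1, Tlr2, Tlr3, Tlr4, Tlr6, Tlr7, Tlr8, Tlr9, Tlr13 and Cd14. They are 10 of 47069 rows of the table and 10 of the 14473 genes with enough reads to be tested, so every member could be tested. The cells were macrophages grown from bone marrow of C57BL/6 mice in medium conditioned with M-CSF for 5 days and then kept for 36 h with or without a cytokine. Wild-type cells were left without cytokine or given IL-33 or IL-4. In addition, cells labelled ST2-/-, which should lack the IL-33 receptor chain encoded by Il1rl1, and cells labelled Cx3cr1CRExGata3fl/fl, in which a Cre recombinase driven by Cx3cr1 should delete Gata3, received no cytokine or IL-33. Each group had 3 libraries, 21 in all. The ages and number of the mice and the cytokine doses are not in the labels, and nothing there says whether the libraries of a group came from separate mice, so the p-values speak only of the spread among these libraries, and that spread may be technical.

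Toll-like receptors are the transmembrane sensors with which macrophages recognise microbial molecules. TLR1, TLR2, TLR4 and TLR6 act at the cell surface on lipids and lipoproteins of bacteria, and CD14 is a surface and soluble protein that hands lipopolysaccharide to TLR4 and its partner MD-2. TLR3, TLR7, TLR8, TLR9 and TLR13 sit in endosomes and read nucleic acids. All of them except TLR3 signal through the adaptor MyD88, which the IL-33 receptor also uses, whereas IL-4 signals through STAT6.

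The libraries held between 32626469 and 48743646 counted reads. All 8 macrophage marker genes were present in every group, among them Csf1r and Adgre1, the gene of the F4/80 antigen. The summed markers of B cells stayed at or under 5.97 CPM (the reads of a gene relative to the TMM-scaled total of its library, the usual depth-corrected unit), against 15151 CPM or more for the macrophage markers. The label checks were mixed. Il1rl1 was not lower in the ST2-/- labelled libraries without cytokine (17.4 ± 2.95 CPM, SD, n = 3) than in wild type (15.7 ± 1.45 CPM, SD, n = 3), and Gata3 was under 0.444 CPM in all 21 libraries. Counts over a whole gene cannot show the loss of some of its exons, so neither deletion was checked by these values. With IL-33, Il1rl1 was at 6.44 ± 1.12 CPM (SD, n = 3) in Cx3cr1CRExGata3fl/fl labelled cells and at 15.7 ± 1.14 CPM in wild type, without overlap. Untreated Cx3cr1CRExGata3fl/fl labelled cells had 14.7 ± 1.86 CPM. The part of this in the IL-33 responses of that genotype was not tested. Xist, expressed from the inactive X chromosome, was at 276.7 to 376 CPM in all 6 Cx3cr1CRExGata3fl/fl labelled libraries and at or under 0.0462 CPM in the other 15, and the Y-linked Ddx3y was at or under 0.0286 CPM in those 6 and at 61.0 CPM or more in the other 15. Sex and genotype therefore cannot be told apart when Cx3cr1CRExGata3fl/fl labelled cells are set against wild type.

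In the GRCm38 annotation, 4 of the members lie in neighbouring pairs. Tlr1 (ENSMUSG00000044827, chr5:64924679-64933563, minus strand) lies beside Tlr6 (ENSMUSG00000051498, chr5:64952031-64960097, minus strand). Tlr8 (ENSMUSG00000040522, chrX:167242696-167264329, minus strand) lies beside Tlr7 (ENSMUSG00000044583, chrX:167304929-167330558, minus strand). The other X-linked member is Tlr13 (ENSMUSG00000033777, chrX:106143204-106160493, plus strand). The remaining members are Tlr2 (ENSMUSG00000027995, chr3:83836272-83841767, minus strand), Tlr4 (ENSMUSG00000039005, chr4:66827584-66930284, plus strand), Tlr3 (ENSMUSG00000031639, chr8:45395665-45411080, minus strand), Tlr9 (ENSMUSG00000045322, chr9:106222598-106226883, plus strand) and Cd14 (ENSMUSG00000051439, on chromosome 18, minus strand). Tlr1 shared 20.02% of its 31-base exon words with other genes and Tlr6 shared 16.6%, in each case with the other of the pair first, so their counts are uncertain where reads fell in the shared parts. The exons of Tlr3 overlap 381 bases of the gene model Gm45542, on either strand. The strand setting of the counting is not given, so it is not known whether reads there could be assigned.

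**Figure D1:**
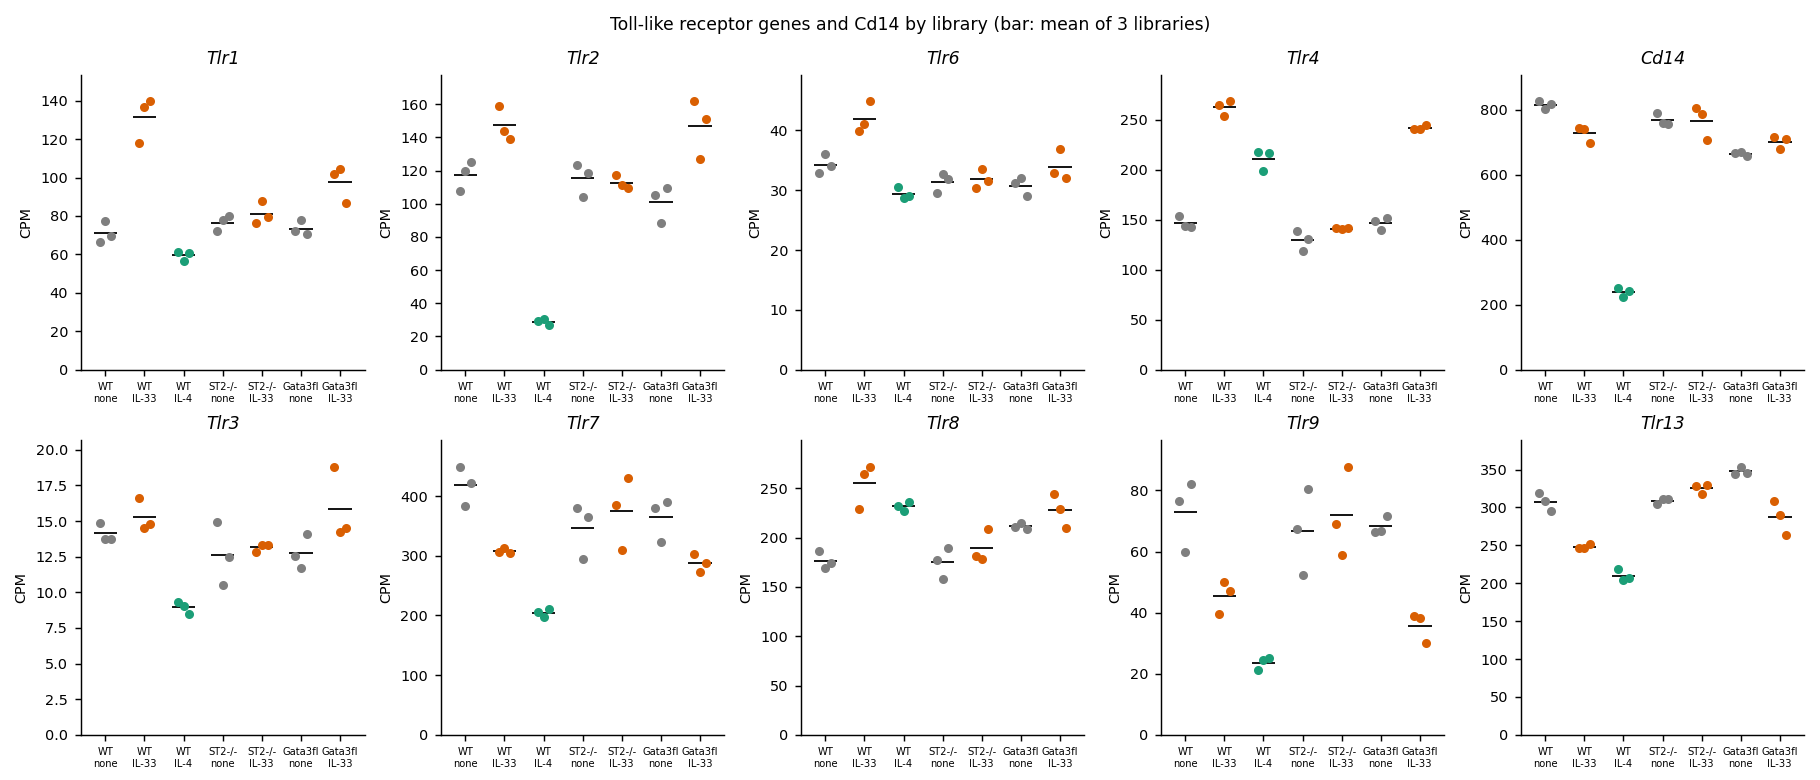
CPM (vertical axes, starting at 0) of each member in the 21 libraries, by genotype and cytokine; each point is a library and each bar the mean of 3, and Gata3fl stands for Cx3cr1CRExGata3fl/fl. Tlr2, Cd14 and Tlr9 are lowest in wild-type cells with IL-4, and Tlr1 and Tlr4 are highest in wild-type cells with IL-33.

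Levels were compared between genes only per length, as RPKM (CPM per kilobase of exon). Cd14 stood first in all 7 groups, at 471 ± 6.85 RPKM (SD, n = 3) in wild-type cells without cytokine, and Tlr3, the sensor of dsRNA, stood last in all 7 groups, at 2.72 ± 0.125 RPKM (SD, n = 3) in the same cells. Between them, in falling order in wild-type cells without cytokine, came Tlr7 at 102.5 RPKM, Tlr13 at 71.5 RPKM, Tlr8 at 49.2 RPKM, Tlr2 at 39.0 RPKM, Tlr4 at 26.4 RPKM, Tlr1 at 21.3 RPKM, Tlr9 at 20.9 RPKM and Tlr6 at 9.20 RPKM. Of the neighbours in this order, the libraries overlapped for Tlr1 and Tlr9 and for no other pair.

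The order changed with each cytokine. With IL-33, Tlr8 moved from the fourth to the third place at 71.1 ± 6.39 RPKM (SD, n = 3), where its libraries overlapped those of Tlr7 at 75.4 ± 1.14 RPKM (SD, n = 3). Tlr2 at 48.8 RPKM and Tlr4 at 47.2 RPKM also overlapped with IL-33, as did Tlr9 at 13.1 RPKM and Tlr6 at 11.3 RPKM. With IL-4, Tlr8 stood in the second place at 64.6 ± 1.40 RPKM (SD, n = 3), above Tlr7 at 50.1 RPKM and Tlr13 at 48.7 RPKM, whose libraries overlapped. Tlr2 dropped from the fifth to the seventh place with IL-4, at 9.61 ± 0.626 RPKM (SD, n = 3). The summed level of the 10 genes was 2176 ± 58.4 CPM (SD, n = 3) without cytokine, 2184 ± 20.6 CPM after IL-33 and 1245 ± 41.3 CPM after IL-4. In the 4 groups of the other genotypes the order of the 10 genes was that of untreated wild-type cells, with overlap between Tlr7 and Tlr13 in all 4. The summed level with IL-33 therefore differed from that without cytokine by less than the spread between libraries, while the single genes below moved in both directions.

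**Figure D2:**
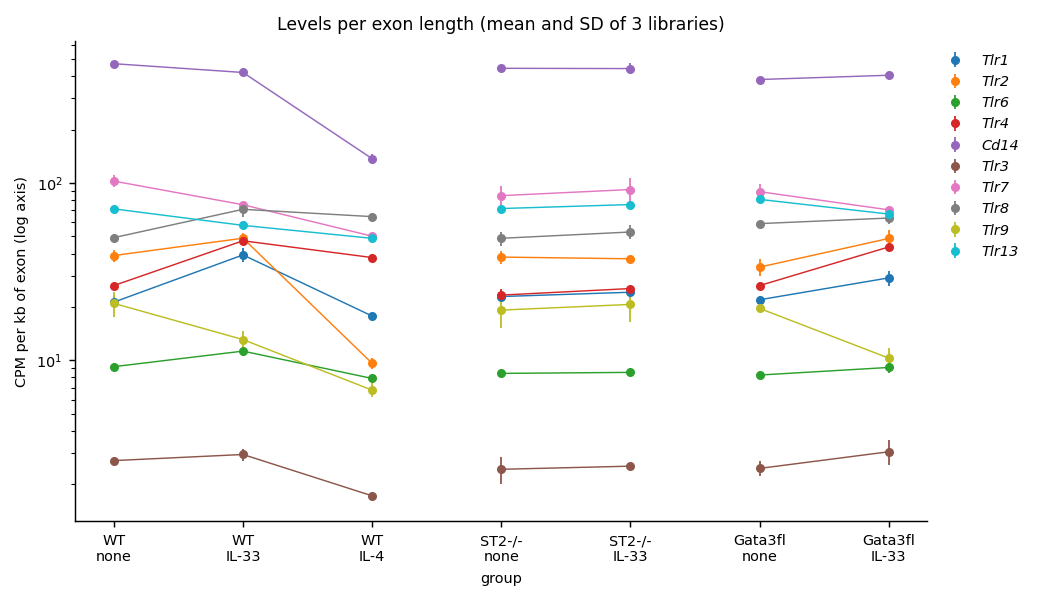
Mean level of each member in CPM per kilobase of exon (vertical axis, log scale) in the 7 groups, with the SD of 3 libraries; lines join the groups of a genotype. Cd14 is the highest and Tlr3 the lowest line in every group, and the Tlr2 line falls from 48.8 with IL-33 to 9.61 with IL-4 in wild-type cells.

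The first question was how IL-33, an alarmin of the IL-1 family, and IL-4 alter the receptors of wild-type cells. With IL-33, 5 members rose (Tlr1, Tlr4, Tlr8, Tlr2 and Tlr6), 4 fell (Tlr9, Tlr7, Tlr13 and Cd14) and Tlr3 was not called. Of all 14473 genes tested, 18.5% were called higher and 16.9% lower (2676 and 2446 genes, or 2251 and 3010 with upper-quartile scaling). A gene was called when its adjusted p in edgeR's quasi-likelihood test, over all genes, was under 0.05. The median log2 change was 0.20 over the members and -0.00 over all genes tested. With IL-4, all 10 members were called, 2 higher (Tlr4 and Tlr8) and 8 lower, against 25.1% of all genes higher and 22.5% lower (3627 and 3263 genes, or 3209 and 3718 with upper-quartile scaling). The median log2 change with IL-4 was -0.61 over the members and 0.00 over all genes tested. Both comparisons use the same 3 libraries without cytokine, so their values are given side by side and not as independent results. In bulk samples, fewer cells expressing a gene and less RNA per cell cannot be told apart.

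Among the surface receptors, Tlr4 was higher with either cytokine. TLR4 is the receptor of bacterial lipopolysaccharide. Its 3 libraries read 153.7, 143.7 and 142.6 CPM without cytokine, 265.0, 254.0 and 268 CPM with IL-33, and 218, 199 and 217 CPM with IL-4. No 2 of these groups overlapped, and IL-33 gave the highest values. Tlr4 rose 1.79-fold with IL-33 (log2 change 0.84 ± 0.05, SE, adjusted p = 3.56e-11) and 1.44-fold with IL-4 (0.52 ± 0.05, SE, adjusted p = 2.85e-08).

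Cd14 changed otherwise than Tlr4. It read 826, 803 and 819.6 CPM without cytokine, 746, 742 and 698 CPM with IL-33, and 250.03, 222 and 240.6 CPM with IL-4. The IL-33 libraries lay slightly below the untreated ones without overlap, and the IL-4 libraries lay far below both. Cd14 fell by 0.16 ± 0.05 (SE) on the log2 scale with IL-33 (adjusted p = 0.0107) and was 3.44-fold lower with IL-4 (log2 change -1.78 ± 0.05, SE, adjusted p = 1.43e-17). Within a library, the ratio of Tlr4 reads to Cd14 reads was 0.180 ± 0.00607 (SD, n = 3) without cytokine, 0.361 ± 0.0216 after IL-33 and 0.888 ± 0.0152 after IL-4. Such a ratio does not depend on the scaling between libraries, and because the gene lengths are the same in every library its change can be read although its size cannot.

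Tlr2 took opposite directions under the cytokines. TLR2 forms heterodimers with TLR1, which bind triacylated lipopeptides, and with TLR6, which bind diacylated ones. Tlr2 read 107.5, 119.6 and 125.4 CPM without cytokine, 159, 143.7 and 138.7 CPM with IL-33, and 29.5, 30.5 and 26.9 CPM with IL-4. The 3 groups did not overlap. Tlr2 rose 1.25-fold with IL-33 (log2 change 0.33 ± 0.09, SE, adjusted p = 0.00596) and was 4.06-fold lower with IL-4 (log2 change -2.02 ± 0.09, SE, adjusted p = 7.71e-14), which was the widest change of any member. The rise with IL-33 was no longer called without the untreated library numbered 1 (log2 change 0.26, adjusted p = 0.0511).

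Its partner genes also rose with IL-33. Tlr1 read 66.6, 77.2 and 69.8 CPM without cytokine, 118, 136.5 and 139.7 CPM with IL-33, and 61.1, 56.4 and 60.8 CPM with IL-4. The IL-33 libraries stood well above all others, and the IL-4 libraries just below the untreated ones. Tlr1 rose 1.85-fold with IL-33 (log2 change 0.88 ± 0.08, SE, adjusted p = 5.51e-09), the largest rise with IL-33 among the members, and fell by 0.26 ± 0.08 (SE) on the log2 scale with IL-4 (adjusted p = 0.00809). Tlr6, between 28.8 and 44.9 CPM in these 9 libraries, rose by 0.29 ± 0.07 (SE) on the log2 scale with IL-33 (adjusted p = 0.00136) and was 1.17-fold lower with IL-4 (adjusted p = 0.00896). The ratio of Tlr1 reads to Tlr6 reads was 2.07 ± 0.0616 (SD, n = 3) without cytokine, 3.13 ± 0.179 after IL-33 and 2.02 ± 0.0702 after IL-4, so the partners of Tlr2 did not rise equally with IL-33.

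**Figure D3:**
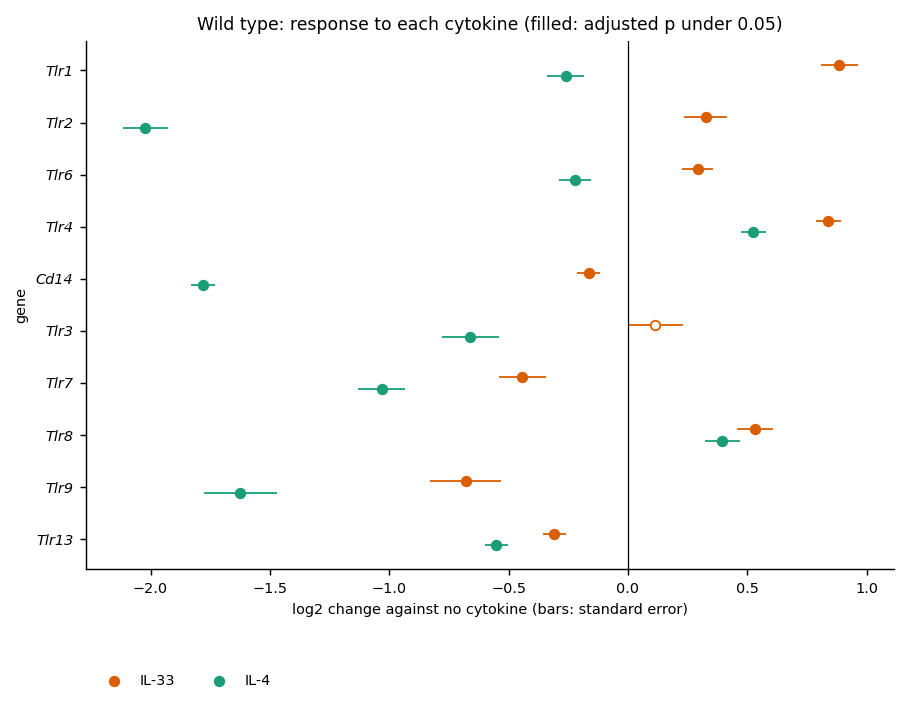
Log2 change of each member in wild-type cells with IL-33 or IL-4 against no cytokine (horizontal axis, bars are standard errors, filled points have an adjusted p under 0.05). Tlr4 and Tlr8 lie to the right of 0 for both cytokines, Tlr7, Tlr9, Tlr13 and Cd14 lie to the left for both, and Tlr1, Tlr2 and Tlr6 lie on opposite sides.

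Of the endosomal receptors, Tlr9, Tlr7 and Tlr13 were lower with both cytokines. TLR9 reads unmethylated CpG DNA, TLR7 reads ssRNA and TLR13 reads bacterial ribosomal RNA. Tlr9 read 76.5, 59.8 and 82.2 CPM without cytokine, 39.4, 50.1 and 47.0 CPM with IL-33, and 21.2, 24.4 and 25.2 CPM with IL-4. The untreated libraries varied most, yet none overlapped either cytokine group. Tlr9 was 1.60-fold lower with IL-33 (log2 change -0.68 ± 0.15, SE, adjusted p = 0.000955) and 3.08-fold lower with IL-4 (-1.62 ± 0.15, SE, adjusted p = 1.03e-08).

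Tlr7 read 449, 384 and 422 CPM without cytokine, 306, 313 and 304 CPM with IL-33, and 205, 197.6 and 211 CPM with IL-4. It was 1.36-fold lower with IL-33 (log2 change -0.44 ± 0.10, SE, adjusted p = 0.00107) and 2.05-fold lower with IL-4 (-1.03 ± 0.10, SE, adjusted p = 1.20e-08). Tlr13, from 204 to 318.5 CPM in the same libraries, was 1.24-fold lower with IL-33 (adjusted p = 1.95e-05) and 1.47-fold lower with IL-4 (adjusted p = 2.18e-09). For all 3 genes the order of the groups was therefore the same, with untreated cells highest and IL-4 lowest.

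Tlr8, the neighbour and close relative of Tlr7 and an RNA sensor in human cells, went the other way. It read 186, 169 and 173.9 CPM without cytokine, 229, 264 and 272 CPM with IL-33, and 232, 226.5 and 236.5 CPM with IL-4. All 6 libraries with a cytokine lay above the untreated ones, and the IL-33 and IL-4 libraries overlapped. Tlr8 rose 1.45-fold with IL-33 (log2 change 0.53 ± 0.07, SE, adjusted p = 5.03e-06) and 1.31-fold with IL-4 (0.39 ± 0.07, SE, adjusted p = 0.000117). The ratio of Tlr8 reads to Tlr7 reads in a library was 0.422 ± 0.0156 (SD, n = 3) without cytokine, 0.828 ± 0.0742 after IL-33 and 1.13 ± 0.0131 after IL-4, with no overlap between the groups. The reads of Tlr4 over those of Tlr9 stood at 2.05 ± 0.336 (SD, n = 3) untreated, 5.83 ± 0.834 after IL-33 and 9.01 ± 1.13 after IL-4, also without overlap.

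Tlr3, the least abundant member, was counted by 295 to 629 reads in the wild-type libraries. It read 14.9, 13.8 and 13.8 CPM without cytokine, 16.6, 14.5 and 14.8 CPM with IL-33, and 9.32, 9.05 and 8.48 CPM with IL-4. The first groups overlapped and the IL-4 group stood apart. Its log2 change with IL-33 was 0.11 (95% interval -0.11 to 0.34, adjusted p = 0.488), and with IL-4 it was 1.58-fold lower (log2 change -0.66 ± 0.12, SE, adjusted p = 7.56e-05).

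**Figure D4:**
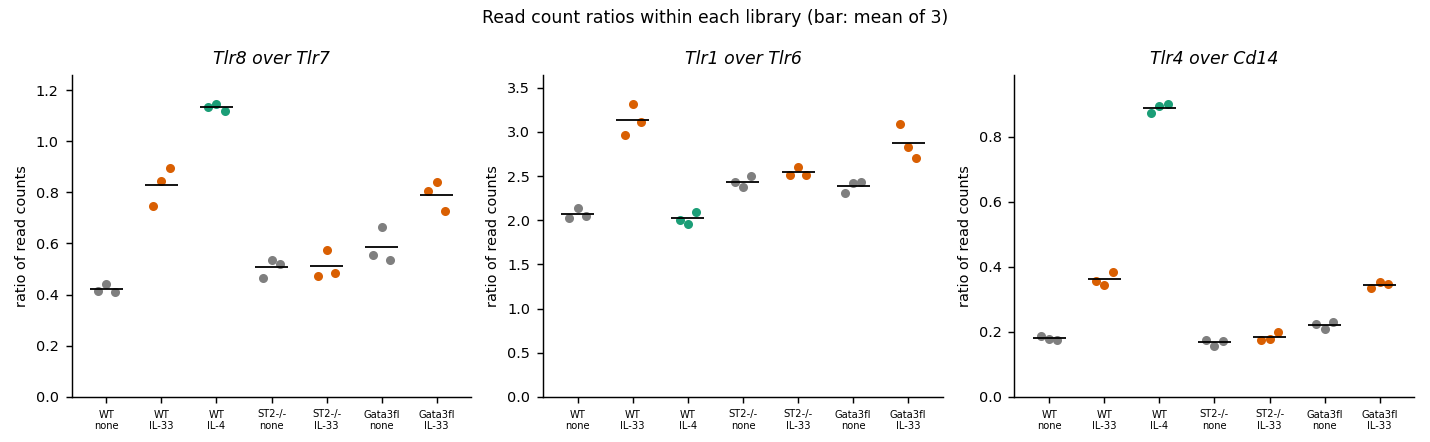
Ratio of the read counts of 2 genes within each library (vertical axes, starting at 0) for Tlr8 over Tlr7, Tlr1 over Tlr6 and Tlr4 over Cd14; points are libraries and bars are means of 3. The ratios of Tlr8 to Tlr7 and of Tlr4 to Cd14 are highest in wild-type cells with IL-4, at 1.13 and 0.888, and that of Tlr1 to Tlr6 is highest with IL-33, at 3.13.

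Set directly against IL-4, wild-type cells with IL-33 had higher levels of 9 members, and no member was lower, against 19.2% of all genes higher and 20.7% lower. The widest difference was in Tlr2, 5.09-fold higher with IL-33 than with IL-4 (log2 difference 2.35 ± 0.10, SE, adjusted p = 9.34e-15). Cd14 was 3.07-fold higher (adjusted p = 1.31e-16), Tlr1 2.21-fold (adjusted p = 4.64e-11) and Tlr9 1.92-fold (adjusted p = 3.09e-05). Tlr3 was 1.71-fold, Tlr6 1.43-fold and Tlr13 1.18-fold higher, and Tlr7 was higher by 0.59 on the log2 scale. Tlr4, which rose with both, was still 1.24-fold higher with IL-33 (adjusted p = 4.43e-05). Tlr8 was not called, with a log2 difference of 0.14 (95% interval -0.01 to 0.28, adjusted p = 0.15), and it was called without the IL-33 library numbered 1 (log2 difference 0.22, adjusted p = 0.0226).

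Promoter windows, from 250 bases before to 50 bases after a RefSeq start site in GRCm38.p6, were matched for 7 of the 10 members, 9 windows in all. Tlr4, Tlr7 and Cd14 had no window and were not searched. A window is shown for Tlr2 and Tlr8, whose changes with IL-4 had opposite signs, and for Tlr9 and Tlr13, which were lower with both cytokines. The capitals mark the motif named with each window, searched on both strands.
Tlr2, NF-kB consensus, chr3:83841559-83841858, minus strand: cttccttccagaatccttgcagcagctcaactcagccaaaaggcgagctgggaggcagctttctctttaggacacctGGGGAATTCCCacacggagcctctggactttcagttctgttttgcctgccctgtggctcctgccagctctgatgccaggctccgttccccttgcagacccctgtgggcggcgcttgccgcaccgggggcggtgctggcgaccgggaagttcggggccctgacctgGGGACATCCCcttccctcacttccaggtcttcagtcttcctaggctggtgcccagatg
Tlr8, STAT6-type palindrome TTCNNNNGAA, chrX:167264280-167264579, minus strand: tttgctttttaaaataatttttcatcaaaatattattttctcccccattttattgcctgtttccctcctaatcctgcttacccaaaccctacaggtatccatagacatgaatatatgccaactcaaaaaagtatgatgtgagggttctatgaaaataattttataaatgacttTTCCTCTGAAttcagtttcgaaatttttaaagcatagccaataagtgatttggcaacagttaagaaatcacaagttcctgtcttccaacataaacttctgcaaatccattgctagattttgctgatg
Tlr9, PU.1 core GAGGAAG, chr9:106222348-106222647, plus strand: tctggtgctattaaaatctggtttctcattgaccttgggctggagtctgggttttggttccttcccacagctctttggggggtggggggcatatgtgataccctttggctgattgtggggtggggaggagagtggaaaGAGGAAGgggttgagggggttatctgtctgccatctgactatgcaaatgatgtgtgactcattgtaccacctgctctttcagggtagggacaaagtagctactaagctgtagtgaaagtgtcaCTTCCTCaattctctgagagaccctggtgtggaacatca
Tlr13, PU.1 core GAGGAAG, chrX:106143025-106143324, plus strand: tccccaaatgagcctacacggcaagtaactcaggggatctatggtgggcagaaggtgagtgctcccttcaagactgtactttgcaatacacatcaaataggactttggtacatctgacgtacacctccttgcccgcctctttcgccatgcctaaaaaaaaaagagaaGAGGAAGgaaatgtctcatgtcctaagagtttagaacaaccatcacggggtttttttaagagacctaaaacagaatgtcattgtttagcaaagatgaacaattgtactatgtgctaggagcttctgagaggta
NF-kB is the transcription factor activated by MyD88, and its consensus was in the windows of Tlr2 and Tlr3 and in 8.46% of all 32851 windows. The 2 marked stretches of Tlr2 begin 173 and 8 bases before the start site, and the first holds matches that overlap each other. The STAT6-type palindrome, marked 77 bases before the start of Tlr8, was in that member alone of the 7 searched and in 6.95% of all windows. PU.1 is a transcription factor needed for macrophage development, and its core was in windows of Tlr1, Tlr9 and Tlr13 and in 13.6% of all windows. The GAS palindrome TTCNNNGAA was in windows of Tlr1, Tlr6 and Tlr8 and in 8.3% of all windows, at places apart from the STAT6-type match in Tlr8. The interferon-stimulated response element GAAANNGAAA was in a window of Tlr6 and in 3.44% of all windows. A match describes letters in the window and is no evidence of binding.

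The second question was whether the IL-33 response needs ST2. In ST2-/- labelled cells no member was called between IL-33 and no cytokine by edgeR, against 0% of all genes higher and 0% lower. At an unadjusted p under 0.05 were 1 member (Tlr4) and 507 of all genes, and neither DESeq2 nor limma-voom called any gene. The members' log2 changes were 0.12 for Tlr4 and for Tlr8, 0.11 for Tlr7 and for Tlr9, 0.08 for Tlr1, 0.07 for Tlr13, 0.06 for Tlr3, 0.02 for Tlr6, -0.01 for Cd14 and -0.03 for Tlr2. Tlr4 read 139.0, 118.8 and 130.9 CPM without cytokine and 141.7, 140.2 and 141 CPM with IL-33 in these cells. The groups did not overlap, with a log2 change of 0.12 (95% interval 0.02 to 0.23, adjusted p = 1). Tlr1 read 72.1, 77.9 and 79.7 CPM without cytokine and 76.1, 87.6 and 79.3 CPM with IL-33, which overlapped (log2 change 0.08, 95% interval -0.07 to 0.23). Tlr9, at 67.4, 52.4 and 80.5 CPM without cytokine and 69.0, 58.8 and 87.8 CPM with IL-33, overlapped as well (0.11, 95% interval -0.18 to 0.39). Within a library, the ratio of Tlr4 reads to Cd14 reads was 0.168 ± 0.0105 (SD, n = 3) untreated and 0.185 ± 0.0134 after IL-33, where the groups just failed to overlap. That of Tlr8 to Tlr7 was 0.507 ± 0.0362 untreated and 0.511 ± 0.0565 after IL-33, with overlap.

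The difference of the IL-33 response between ST2-/- labelled and wild-type cells was tested by an interaction term, and 8 members passed. For 5 of them the response was lower in ST2-/- labelled cells, by 0.80 ± 0.11 (SE) on the log2 scale for Tlr1, by 0.72 ± 0.08 for Tlr4, by 0.41 ± 0.10 for Tlr8, by 0.36 ± 0.13 for Tlr2 and by 0.27 ± 0.09 for Tlr6. For 3 it was higher, by 0.79 ± 0.21 (SE) for Tlr9, by 0.56 ± 0.14 for Tlr7 and by 0.38 ± 0.07 for Tlr13, whose levels had fallen with IL-33 in wild-type cells. Of all genes, 10.6% had a higher and 12.1% a lower response (1539 and 1745 genes, or 1841 and 1500 with upper-quartile scaling). Every direction is the opposite of the wild-type change. This follows from the contrast, which subtracts the wild-type change from changes of only -0.03 to 0.12 in ST2-/- labelled cells. It is no separate result. Cd14 (0.16, adjusted p = 0.104) and Tlr3 (-0.06, adjusted p = 0.857) were not called. Of 12 fits that each left out a library, the call for Tlr2 (adjusted p = 0.0438) was kept only in the 3 without the untreated or IL-33 wild-type library numbered 3 or the untreated ST2-/- labelled library numbered 2, and that for Tlr6 (adjusted p = 0.0403) only in the 4 without the untreated wild-type library numbered 2, the IL-33 wild-type library numbered 1, the untreated ST2-/- labelled library numbered 1 or the IL-33 one numbered 2. Both were also lost with upper-quartile scaling (adjusted p = 0.0677 for Tlr2 and 0.0787 for Tlr6), under which Cd14 was called (0.20, adjusted p = 0.0433), and Tlr6 was lost without the filter (adjusted p = 0.084) and with only the groups compared (adjusted p = 0.0574).

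Without cytokine, no member was called between ST2-/- labelled and wild-type cells by edgeR, where 0.871% of all genes were higher and 0.484% lower. At an unadjusted p under 0.05 were 2 members, Tlr4 and Tlr7, and 2137 of all genes. DESeq2 called 1 member, Tlr4 (log2 difference -0.19, adjusted p = 0.033). Tlr4 at 118.8 to 139.0 CPM lay below the wild-type 142.6 to 153.7 CPM without overlap (log2 difference -0.18 ± 0.05, SE, adjusted p = 0.105). Tlr7 at 294 to 380 CPM lay below the wild-type 384 to 449 CPM (-0.27 ± 0.10, SE, adjusted p = 0.182). The log2 differences of the others were -0.16 for Tlr3, -0.13 for Tlr9 and for Tlr6, -0.09 for Cd14, -0.03 for Tlr2, -0.01 for Tlr8, 0.01 for Tlr13 and 0.11 for Tlr1.

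**Figure D5:**
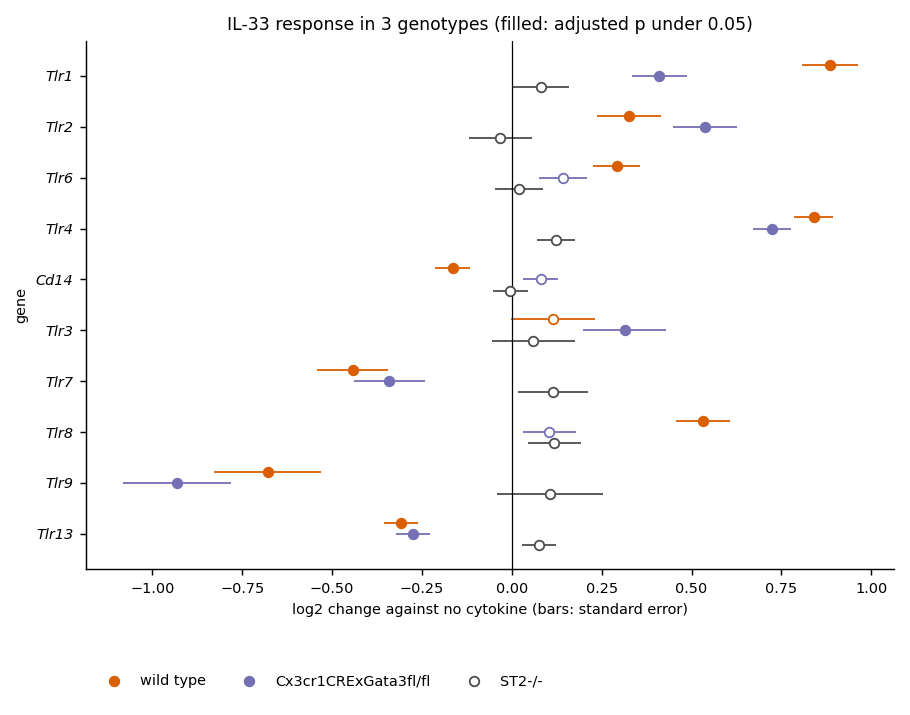
Log2 change of each member with IL-33 against no cytokine in wild-type, Cx3cr1CRExGata3fl/fl labelled and ST2-/- labelled cells (horizontal axis, bars are standard errors, filled points have an adjusted p under 0.05). The ST2-/- labelled points lie between -0.03 and 0.12, and for Tlr1 and Tlr8 the Cx3cr1CRExGata3fl/fl labelled points lie to the left of the wild-type points.

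The third question was how the IL-33 response ran in Cx3cr1CRExGata3fl/fl labelled cells. A need for Gata3 cannot be read from it, because Gata3 had only 17 reads over the 3 untreated wild-type libraries and 22 with IL-33. In the Cx3cr1CRExGata3fl/fl labelled libraries it had 32 reads untreated and 37 with IL-33. Sex also differed between these genotypes. In Cx3cr1CRExGata3fl/fl labelled cells, 4 members rose with IL-33 (Tlr4, Tlr2, Tlr1 and Tlr3) and 3 fell (Tlr9, Tlr7 and Tlr13), against 17.1% of all genes higher and 16.3% lower. With upper-quartile scaling the split of all genes turned from 2471 higher and 2364 lower to 2001 higher and 2985 lower, while no member's call changed sign. Tlr4 read 148.7, 139.5 and 151.6 CPM without cytokine and 240.9, 240.5 and 245 CPM with IL-33, and the groups lay far apart. It rose 1.65-fold (log2 change 0.72 ± 0.05, SE, adjusted p = 4.85e-10). Tlr2 read 105, 88.4 and 109.7 CPM without cytokine and 162, 127 and 151 CPM with IL-33, rising 1.45-fold (0.54 ± 0.09, SE, adjusted p = 5.14e-05). Tlr9 read 66.4, 66.7 and 71.6 CPM without cytokine and 39.0, 38.1 and 30.2 CPM with IL-33, and was 1.91-fold lower (-0.93 ± 0.15, SE, adjusted p = 4.00e-05).

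Tlr13 was 1.21-fold lower with IL-33 in these cells (adjusted p = 8.74e-05) and Tlr7 1.27-fold lower (adjusted p = 0.00964). Tlr7 was no longer called without the untreated library numbered 3 or the IL-33 library numbered 2 (highest adjusted p = 0.0614). Tlr3 rose 1.24-fold (adjusted p = 0.0411), a call lost in 3 of the 6 fits that left out a library, those without the untreated libraries numbered 1 and 2 or the IL-33 library numbered 1, with adjusted p up to 0.305, and with upper-quartile scaling (adjusted p = 0.0777). This call was also lost when only the groups compared were fitted (adjusted p = 0.0611). Cd14 (0.08, adjusted p = 0.227), Tlr6 (0.14, adjusted p = 0.112) and Tlr8 (0.10, adjusted p = 0.302) were not called. The ratio of Tlr4 reads to Cd14 reads was 0.221 ± 0.0111 (SD, n = 3) untreated and 0.345 ± 0.00896 after IL-33, and that of Tlr8 to Tlr7 was 0.585 ± 0.0698 and 0.790 ± 0.0591, without overlap in either case.

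The IL-33 response differed from that of wild-type cells for 2 members, Tlr1 and Tlr8, both lower in Cx3cr1CRExGata3fl/fl labelled cells. Of all genes, 0.539% had a higher and 0.677% a lower response. The comparison uses the same 6 wild-type libraries as that with ST2-/- labelled cells. Tlr1 read 72.0, 77.7 and 70.6 CPM without cytokine and 101.6, 104 and 86.8 CPM with IL-33. These untreated libraries overlapped the wild-type ones, while the IL-33 libraries all lay below the wild-type 118 to 139.7 CPM. The rise of Tlr1 was 1.33-fold against 1.85-fold in wild type (interaction -0.47 ± 0.11, SE, adjusted p = 0.0348).

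Tlr8 read 211, 214.7 and 209 CPM without cytokine and 244, 229 and 209 CPM with IL-33. Here the untreated libraries already stood above the wild-type 169 to 186 CPM, and the IL-33 libraries overlapped both the untreated ones and those of wild type with IL-33 (interaction -0.43 ± 0.10, SE, adjusted p = 0.046). Both calls lay near the threshold. With a library left out, the interaction stayed between -0.53 and -0.38 for Tlr1 and between -0.48 and -0.36 for Tlr8. The call of Tlr1 was kept in 3 of 12 fits that left out a library, those without the wild-type untreated library numbered 2, the wild-type IL-33 library numbered 1 or the Cx3cr1CRExGata3fl/fl labelled IL-33 library numbered 2, and its adjusted p reached 0.127. That of Tlr8 was kept in 2 of 12, those without the wild-type or the Cx3cr1CRExGata3fl/fl labelled IL-33 library numbered 1, and its adjusted p reached 0.17. Of the 8 members not called by edgeR, Cd14 had an interaction of 0.24 (95% interval 0.11 to 0.38, adjusted p = 0.0863), and it was called by DESeq2 (0.25, adjusted p = 0.0169) and when only the groups compared were fitted (0.25, adjusted p = 0.0373). The fit of only the groups compared lost the call of Tlr1 (adjusted p = 0.051). RLE scaling lost that of Tlr8 (adjusted p = 0.054). The interaction was 0.21 for Tlr2, 0.20 for Tlr3, 0.10 for Tlr7, 0.03 for Tlr13, -0.12 for Tlr4, -0.15 for Tlr6 and -0.25 for Tlr9 (95% interval -0.67 to 0.16).

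Without cytokine, Cx3cr1CRExGata3fl/fl labelled cells had less Cd14 and more Tlr8 and Tlr13 than wild type, against 5.6% of all genes higher and 4.25% lower. Cd14 read 666, 669 and 659 CPM, below every wild-type library (log2 difference -0.30 ± 0.05, SE, adjusted p = 0.000444). Tlr8 was 1.20-fold higher (0.26 ± 0.07, SE, adjusted p = 0.0264) and Tlr13, at 345, 354 and 346 CPM, was 0.18 ± 0.05 (SE) higher on the log2 scale (adjusted p = 0.0197). Cd14 was called in all 6 fits that left out a library, Tlr8 only in the fit without the wild-type library numbered 1 (adjusted p up to 0.103), and Tlr13 in the fits without the wild-type or the Cx3cr1CRExGata3fl/fl labelled library numbered 1 (adjusted p up to 0.119). The 2 higher members are X-linked. Xist separated the groups, so sex and genotype cannot be told apart here, and the part of X linkage in these differences was not tested. Of the 481 X-linked genes tested, 9.36% were higher and 2.08% lower in this comparison, and of the autosomal genes 5.46% were higher and 4.29% lower. Tlr7, also X-linked, had a log2 difference of -0.20 (adjusted p = 0.221). Those of the other members not called were -0.22 for Tlr2, -0.16 for Tlr6, -0.15 for Tlr3, -0.09 for Tlr9, -0.00 for Tlr4 and 0.04 for Tlr1.

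With IL-33 in both genotypes, Tlr1 (-0.43 ± 0.08, SE, adjusted p = 0.000581) and Tlr6 (-0.31 ± 0.07, SE, adjusted p = 0.00375) were lower in Cx3cr1CRExGata3fl/fl labelled cells. Tlr13 was higher (0.21 ± 0.05, SE, adjusted p = 0.00492). Of all genes, 5.5% were higher and 5.85% lower. Tlr6 read 32.9, 36.8 and 32.1 CPM against 39.9, 41.1 and 44.9 CPM in wild type, without overlap, so the partner genes of Tlr2 were lower while Tlr2 itself was at 146.7 ± 17.7 CPM (SD, n = 3) against 147.2 ± 10.6 CPM in wild type. The log2 differences of the members not called were -0.00 for Tlr2, -0.35 for Tlr9, -0.16 for Tlr8, -0.12 for Tlr4, -0.10 for Tlr7, -0.05 for Cd14 and 0.05 for Tlr3.

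The genes that work with the receptors were taken in lists and are to be read against the share of all genes called, 18.5% higher and 16.9% lower with IL-33 and 25.1% higher and 22.5% lower with IL-4 in wild-type cells. Of 5 co-receptor genes tested, 3 rose and 1 fell with IL-33, and 1 rose and 2 fell with IL-4. Ly96, which encodes the MD-2 partner of TLR4, was 0.27 ± 0.09 (SE) higher on the log2 scale with IL-33 (adjusted p = 0.0263) and not called with IL-4 (0.17, adjusted p = 0.131). Cd180, a relative of TLR4, fell by 0.64 with IL-33 and by 0.72 with IL-4, whereas its partner Ly86 rose by 0.38 with IL-33 and fell by 0.85 with IL-4. Cd36, a scavenger receptor that works with TLR2 and TLR6, rose 1.58-fold with IL-33 and 4.73-fold with IL-4.

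Of 23 adaptor and kinase genes, 5 rose and 5 fell with IL-33, near the share of all genes, while 4 rose and 10 fell with IL-4. The median log2 change was 0.03 with IL-33 and -0.11 with IL-4. Myd88 rose by 0.43 ± 0.05 (SE) with IL-33 (adjusted p = 4.49e-07) and fell by 0.76 ± 0.05 (SE) with IL-4 (adjusted p = 3.43e-11). Other wide changes with IL-33 were in the kinase gene Ikbke (0.64) and in Irak2 (-0.55). With IL-4 they were in Irf7, an interferon regulatory factor used by TLR7 and TLR9 (-2.46 ± 0.36, SE, adjusted p = 5.75e-06), and in Pik3ap1 (-1.08).

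Irf7 was also uneven between libraries, a feature chosen after its values were seen. It read 240.0, 146 and 159.6 CPM in wild-type cells, 128, 48.0 and 84.7 CPM in ST2-/- labelled cells and 134, 56.6 and 100.6 CPM in Cx3cr1CRExGata3fl/fl labelled cells, all without cytokine. In these 3 groups, and in all others except wild type with IL-33, the library numbered 2 was the lowest for Irf7 and for Tlr7. The part of this in the results for Tlr7 was not tested.

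Of 17 genes for the folding, transport and processing of endosomal receptors, 5 rose and 5 fell with IL-33, and 6 rose and 7 fell with IL-4. Unc93b1, the chaperone that carries these receptors to endosomes, was not called with IL-33 (-0.03, adjusted p = 0.563) and fell by 0.36 ± 0.04 (SE) with IL-4 (adjusted p = 1.62e-07). The lysosomal protease gene Ctsl rose 2.98-fold with IL-33 and 1.97-fold with IL-4. The transporter genes split in the same way under both cytokines, Slc15a3 rising by 0.79 after IL-33 and 1.06 after IL-4 on the log2 scale, while Slc15a4 fell by 0.62 after IL-33 and fell by 0.78 after IL-4. Hsp90b1, a chaperone of Toll-like receptors, rose by 0.62 and 0.85.

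Of 12 inhibitors of receptor signalling, 7 rose and 2 fell with IL-33, and 5 rose and 5 fell with IL-4. The median log2 change was 0.37 with IL-33 and 0.17 with IL-4, beside -0.00 and 0.00 over all genes tested. Irak3, a kinase-like brake on MyD88 signalling, rose by 0.85 ± 0.07 (SE) with IL-33 (adjusted p = 3.63e-09) and fell by 0.67 ± 0.07 (SE) with IL-4. Socs1, a feedback inhibitor of cytokine receptors, rose by 2.82 with IL-33 and by 5.40 with IL-4. Tnfaip3 and Zc3h12a rose by 1.02 and 1.04 with IL-33.

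Of 14 other sensors of microbes and nucleic acids, 5 rose and 3 fell with IL-33, and 1 rose and 8 fell with IL-4. Clec4e, a receptor for mycobacterial glycolipids, rose 5.49-fold with IL-33 and was 3.90-fold lower with IL-4. Nlrp3, an inflammasome sensor, fell by 0.21 with IL-33 and by 1.72 with IL-4. The remaining Toll-like receptor genes, Tlr5, Tlr11 and Tlr12, summed to at most 1.72 CPM in any library. In wild-type cells none of the 3 was called with IL-33. With IL-4, Tlr5 was lower there (0.0334 CPM against 0.942 CPM) and Tlr11 higher (0.744 CPM against 0.128 CPM).

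In ST2-/- labelled cells no gene of these 6 lists was called with IL-33 by edgeR. The IL-33 response was lower there than in wild type for 3 and higher for 3 of the adaptor and kinase genes, lower for 2 and higher for 1 of the co-receptor genes, lower for 5 and higher for 3 of the endosomal transport genes, lower for 6 and higher for 1 of the inhibitors and lower for 4 of the other sensors. Of all genes, 12.1% had a lower and 10.6% a higher response there. In Cx3cr1CRExGata3fl/fl labelled cells IL-33 raised 5 and lowered 4 adaptor and kinase genes, lowered 1 co-receptor gene, raised 4 and lowered 4 endosomal transport genes, raised 6 and lowered 1 of the inhibitors, and raised 5 and lowered 2 of the other sensors. Of Tlr5, Tlr11 and Tlr12, 1 was lowered, and their sum was 1.38 to 1.52 CPM untreated and 0.515 to 0.646 CPM with IL-33. The shares of all genes were 17.1% higher and 16.3% lower, and the adaptor and kinase counts lay near them. Ly86 was the only gene of the 6 lists whose IL-33 response was called different between Cx3cr1CRExGata3fl/fl labelled and wild-type cells (interaction -0.39 ± 0.08, SE). Among all genes, 0.539% had a higher and 0.677% a lower response in that comparison.

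Markers of other cells that use these receptors moved with some groups. The summed neutrophil markers were at 33.2 to 38.8 CPM in wild-type cells without cytokine, 198.6 to 280.5 CPM with IL-33 and 32.9 to 34.7 CPM with IL-4. In Cx3cr1CRExGata3fl/fl labelled cells they were at 63.0 to 68.6 CPM untreated and at 299 to 349 CPM after IL-33. The summed macrophage markers were at 28007 to 30919 CPM in untreated wild-type cells, 36981 to 40894 CPM after IL-33 and 15151 to 16811 CPM after IL-4. Of the 8 genes, 5 were lower with IL-4 and 3 higher, beside 22.5% and 25.1% of all genes. The part of these sums in the members' changes was not tested. Of 9 neutrophil markers tested, 7 were higher with IL-33 in wild type, beside 18.5% of all genes. Without cytokine, 6 were higher in Cx3cr1CRExGata3fl/fl labelled than in wild-type cells, beside 5.6% of all genes. Mmp8 rose 16.1-fold with IL-33. The defining marker Ly6g had no read in the wild-type libraries without cytokine or with IL-4 or in the untreated Cx3cr1CRExGata3fl/fl labelled ones. With IL-33 it had 2 reads over the 3 wild-type libraries and 4 reads over the 3 Cx3cr1CRExGata3fl/fl labelled libraries. In ST2-/- labelled cells it had reads without cytokine and none with IL-33. The part of the neutrophil list in the changes of Tlr1, Tlr2, Tlr4 and Tlr8, and in the genotype difference of Cd14, was not tested.

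Markers of plasmacytoid dendritic cells, which use TLR7 and TLR9, summed to 126 to 141 CPM without cytokine, 112.9 to 130.5 CPM with IL-33 and 67.6 to 69.2 CPM with IL-4 in wild-type cells. Most of that sum was Tcf4, and the more specific Siglech was at 3.23 CPM without cytokine and had a log2 change of -0.39 (adjusted p = 0.17) with IL-33. Of 5 tested, 1 was higher and none lower with IL-33, beside 18.5% and 16.9% of all genes. With IL-4, 2 were lower, beside 22.5% of all genes. The part of this list in the changes of Tlr7 and Tlr9 was not tested.

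Markers of mast cells and basophils summed to 1.05 to 1.45 CPM in untreated and 2.11 to 3.52 CPM in IL-33 wild-type libraries, where 3 of 5 tested were higher and none lower (median log2 change 1.85). In Cx3cr1CRExGata3fl/fl labelled cells the sum was 1.36 to 2.88 CPM untreated and 5.75 to 6.97 CPM after IL-33, with 4 of 5 higher (median 1.66). Markers of conventional dendritic cells summed to 3.22 to 4.63 CPM in untreated and 5.85 to 8.33 CPM in IL-33 wild-type libraries, with 3 of 6 higher and none lower. The shares of all genes called with IL-33 were 18.5% higher and 16.9% lower in wild-type cells. They were 17.1% and 16.3% in Cx3cr1CRExGata3fl/fl labelled cells. Summed markers of T and NK cells stayed at or under 2.23 CPM and those of stromal cells at or under 3.69 CPM in all 21 libraries. The part of these lists in the members' changes was not tested.

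The members were also compared by the pattern of their 7 group means, as the root mean square distance between centred log2 CPM values. Of the 45 pairs, the nearest were Tlr7 and Tlr13 at 0.158 and Tlr6 and Tlr3 at 0.178, and the farthest were Tlr4 and Tlr9 at 0.906. Of the neighbours on a chromosome, Tlr1 and Tlr6 were at 0.212, and Tlr6 was the member nearest to Tlr1, with Tlr3 next at 0.217. Tlr7 and Tlr8 were farther apart, at 0.464. The distances were not scaled to the range of a gene, so genes of narrow range can lie close by that alone. The range of the group means was widest for Tlr2 (2.34 on the log2 scale), Cd14 (1.78), Tlr9 (1.62) and Tlr1 (1.14). Among all genes tested, those nearest to Tlr2 were Rhobtb1 at 0.123 and Stab1 at 0.161, and those nearest to Cd14 were Fbxl4 at 0.0658 and C5ar1, a complement receptor gene, at 0.0802. Those nearest to Tlr9 were Il16 at 0.0607 and Sgsh at 0.0689, and those nearest to Tlr1 were Zfp36l1 at 0.078 and Ikbke at 0.0881. The distances describe 7 means and carry no test.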

How the data were processed

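RNA-seq reads of 21 libraries (paired ends) from cultured macrophages were analysed as the raw read counts per gene that the authors deposited. The tools were DESeq2 1.22.2, HTSeq 0.6.1 and HISAT2 2.0.5 and the build GRCm38, per the submitters' processing notes; their roles, the gene annotation and the strand setting are not given in the sources used here. Libraries were grouped by genotype and cytokine from the labels. The members and gene lists were chosen with earlier results of these data known.

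Genes were filtered with filterByExpr (edgeR 4.0.16, R 4.3.3), leaving 14473 that hold at least 99.97% of each library's counts. Libraries were scaled by TMM and fitted in 1 quasi-likelihood model with a mean per group, and p-values were adjusted by Benjamini-Hochberg over all genes tested. Alternatives were DESeq2 1.42.0, limma-voom (limma 3.58.1), other scalings, no filter, a replicate block, only the groups compared, and leaving out each library. RPKM used the union of GENCODE exons, and promoter windows came from RefSeq (GRCm38.p6). Intervals of 95% use the normal approximation. In each comparison the text names all 10 members and, per list, up to 4 called genes with the largest change plus the partners Ly96, Cd180, Ly86, Unc93b1, Myd88 and Irak3. Likeness was given for the 4 members whose group means ranged most widely, with the 2 nearest genes each.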

Additional observations from a re-analysis of the deposited data

Results flagged for a closer look

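The IL-33 response differed between genotypes by the interaction term of edgeR's quasi-likelihood test for the following members, as log2 differences adjusted over all genes tested. Between ST2-/- labelled and wild-type cells it was lower for Tlr1 (-0.80, adjusted p = 8.79e-06), Tlr4 (-0.72, adjusted p = 2.88e-07), Tlr8 (-0.41, adjusted p = 0.0054), Tlr2 (-0.36, adjusted p = 0.0438) and Tlr6 (-0.27, adjusted p = 0.0403). It was higher for Tlr9 (0.79, adjusted p = 0.00808), Tlr7 (0.56, adjusted p = 0.00486) and Tlr13 (0.38, adjusted p = 0.000181). Between Cx3cr1CRExGata3fl/fl labelled and wild-type cells it was lower for Tlr1 (-0.47, adjusted p = 0.0348) and Tlr8 (-0.43, adjusted p = 0.046).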

How the results depend on the processing

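No called member changed sign under any alternative run. Of the members' changes recomputed under alternatives other than leaving out a library, 779 kept their side of the threshold, 8 were no longer called and 13 became called. In the fits that left out a library, 666 kept their side, 51 were no longer called and 3 became called. With 1 library left out, the members called ranged from 8 to 9 for IL-33 and stayed at 10 for IL-4 in wild type, from 9 to 10 for IL-33 against IL-4, from 6 to 7 for IL-33 in Cx3cr1CRExGata3fl/fl labelled cells, from 6 to 7 for the ST2-/- difference of the IL-33 response and from 0 to 2 for the Cx3cr1CRExGata3fl/fl difference. They ranged from 0 to 1 for ST2-/- labelled and from 1 to 3 for Cx3cr1CRExGata3fl/fl labelled against wild-type cells without cytokine; Tlr4 was the 1 called without the ST2-/- labelled untreated library numbered 1 (adjusted p = 0.04), and Cd14 alone was left without the wild-type or the Cx3cr1CRExGata3fl/fl labelled library numbered 2 or 3. Cd14 joined the ST2-/- difference without the ST2-/- labelled IL-33 library numbered 3 (0.22, adjusted p = 0.0131). The shares of all genes called in the fits with 1 library left out are not given here. With RLE scaling 1 member kept the Cx3cr1CRExGata3fl/fl difference, where 87 of all 14473 genes had a higher and 85 a lower response. For ST2-/- labelled against wild-type cells without cytokine, DESeq2 called 1 member, Tlr4. The edgeR fit of the unfiltered table called 1 other member, Tlr7 (-0.27, adjusted p = 0.000153). Without the filter on low counts, 5 members were called between untreated Cx3cr1CRExGata3fl/fl labelled and wild-type cells and 5 between those given IL-33. Of the 24667 genes in that fit, 1025 were higher and 768 lower untreated, and 960 were higher and 1027 lower with IL-33. The cause of these shifts was not tested.

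The deviations of same-numbered libraries correlated at -0.03 to 0.11, with no comparison in which every pair was over 0.1, so the numbers were not taken to pair the libraries. As a hint from the data, a library correlated best with its own number in 3 of 3 pairs between untreated Cx3cr1CRExGata3fl/fl labelled and wild-type cells. It did so in 11 of 18 and 12 of 18 pairs in the ST2-/- and Cx3cr1CRExGata3fl/fl differences of the response. The library numbered 2 was also the lowest for Irf7 and Tlr7 in every group except wild type with IL-33. Whether the numbers mark libraries handled together was not tested. With the replicate number as a block, 2 members, Tlr4 (-0.18, adjusted p = 0.0238) and Tlr7 (-0.28, adjusted p = 0.0238), were called between ST2-/- labelled and wild-type cells without cytokine, and Cd14 joined the Cx3cr1CRExGata3fl/fl difference of the IL-33 response (0.24, adjusted p = 0.0366). Over all genes, that difference was called for 78 higher and 98 lower genes in the reported fit, 210 and 183 by DESeq2, 229 and 326 without the filter and 182 and 173 with the block. For ST2-/- labelled against wild-type cells without cytokine the counts were 126 and 70 as reported, 241 and 197 by DESeq2, 535 and 340 without the filter and 300 and 290 with the block. IL-33 in ST2-/- labelled cells gave 30 and 40 genes without the filter.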
